A study of Bos taurus with 30 samples.

Results

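Bovine in vivo (IVV) embryonic discs (ED) collected on day 15 were ordered by the RNA of 3 primitive streak genes, and the 4 discs with the highest values were compared with the 4 with the lowest. The score of a disc was the mean of log2(CPM + 1) of TBXT, MIXL1 and EOMES, where CPM is the count scaled by the total of the library. These 8 discs were chosen by measured values from the 9 IVV discs of a series of 30 libraries, and the disc in the middle of the order was left out of both groups. The grouping used the disc libraries themselves, so every difference between the disc groups is given as a description without a test. Tests were made only in libraries that the grouping did not use, which were the extra-embryonic membranes (EEM) of the same embryos and 7 discs from in vitro produced (IVP) embryos.

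All 9 IVV embryos came from a pair of superovulated Holstein donors, per the study's methods, that were artificially inseminated with semen from a single Holstein bull and were flushed from the uterus without surgery. The labels give neither the donor, the length nor the sex of an embryo, so embryos of a group can be full sibs, and donor and score group cannot be told apart. IVP embryos came from slaughterhouse oocytes that were fertilized and cultured without serum. They were then transferred to recipients before the flush, which was also on day 15. Each embryo was cut into the piece with the disc and pieces of membrane, so a disc library also holds trophoblast and hypoblast RNA. In such bulk RNA, fewer cells of a type and less RNA per cell cannot be told apart.

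The disc arises from the epiblast, lies over the hypoblast and is continuous with the trophoblast at its edge. At gastrulation epiblast cells move through the primitive streak, lose their epithelial contacts and become mesoderm or definitive endoderm. Nodal and Wnt signals induce the streak, and TBXT, MIXL1 and EOMES are transcription factors switched on there. In cattle this happens while the membranes elongate, before the conceptus attaches to the uterus.

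The score fell from 5.31 in disc VE5 through 4.33 in VE28 and 4.06 in VE29 to 3.49 in VE26, which form the high-score group. It was 3.27 in VE3, 2.89 in VE19, 2.79 in VE24 and 1.52 in VE4, which form the low-score group. The middle disc VE6 had 3.28, so that the limit of the low-score group lay between nearly equal values. With TMM-scaled values the order of VE6 and VE3 turned. TBXT was at 39.6, 13.2, 9.96 and 7.26 CPM in the high-score discs, at 3.99 CPM in VE6, and at 5.44, 1.62, 4.52 and 0.187 CPM in VE3, VE19, VE24 and VE4. MIXL1 ran from 7.30 to 20.8 CPM in the high-score and from 3.76 to 8.41 CPM in the low-score discs, and these ranges overlapped. EOMES ran from 19.9 to 69.3 CPM in the high-score and from 3.14 to 16.1 CPM in the low-score discs.

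**Figure D1:**
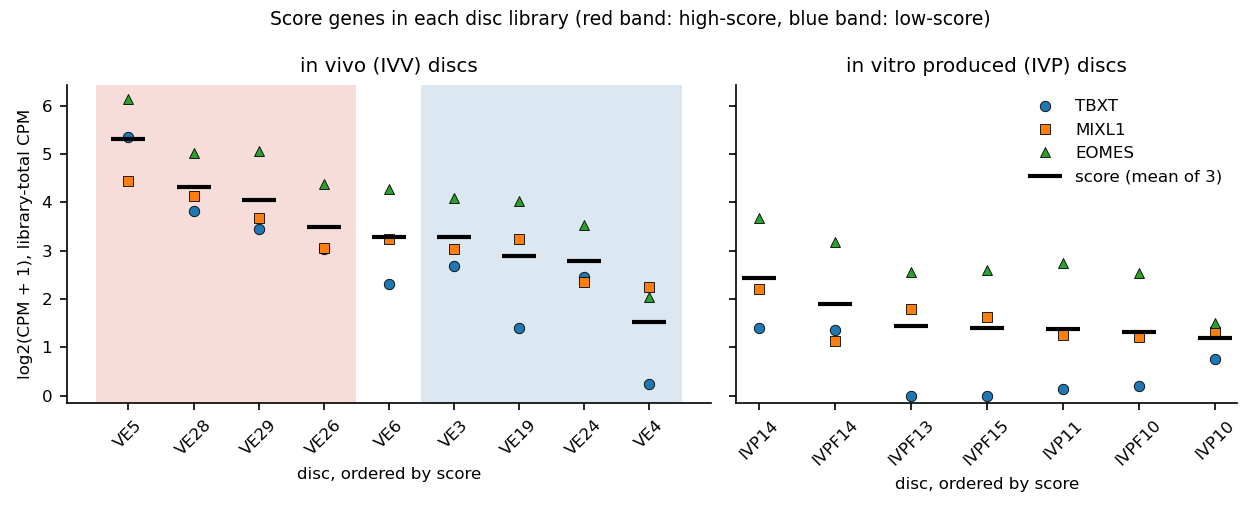
Each point is the log2(CPM + 1) of 1 score gene in 1 disc library, with CPM by library total, and each black bar is the score. The IVV discs are on the left with the high-score group in the red and the low-score group in the blue band, and the 7 IVP discs on the right run from 1.20 to 2.43.

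The IVV disc libraries held 49768415 to 56748553 counts each. VE19, a low-score disc, stood apart by its mitochondrial transcripts, which summed to 188041 CPM against 15724 to 97452 CPM in the other 8 discs. XIST, the transcript of the inactive X chromosome in female cells, held 1 count in a disc of each group, VE5 and VE3, and 3056 to 9864 counts in the other 7. The titles of VE3 and VE19 end in another letter than those of the other 7 discs, and the labels do not say what the letter means. CPM below were scaled by TMM, which corrects for a few abundant genes. Of 14069 genes with a mean of at least 0.5 CPM, 381 were higher, in that every high-score disc lay above every low-score disc and the means differed by at least 1 on the log2 scale, and 13 were lower by the same rule. That is 2.71% and 0.0924% of the genes compared, while the median difference over all genes was -0.10. Without VE19 585 genes were higher and 38 lower, and with only the discs whose titles end in C, which leaves VE24 and VE4 as the low-score group, 949 and 187. With VE6 in the low-score group in place of VE3, 239 genes were higher, 178 of them among the 381, and 11 were lower, 0 of them among the 13.

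Most genes that were higher were more abundant in discs than in membranes. Of the 381, 368 (96.6%) had a mean in the 9 IVV discs at least 2-fold above the mean in the 8 IVV membranes, against 14.8% of all genes compared. The 2 tissues were scaled separately for this ratio, and the disc mean includes the high-score discs in which these genes were chosen as high. With the mean of the low-score discs alone 296 of the 381 (77.7%) had such a ratio, against 11.5% of all genes. Of the 381, 88 had a mean below 0.5 CPM in the low-score discs and passed the filter only through other discs. Within the 8 embryos with both libraries, the mean log2 ratio of disc over membrane reached 2-fold for 364 of the 381 (95.5%) and for 14.5% of all genes. Genes picked by the low-score discs alone were alike. Of 1616 genes at least 2-fold above the membranes in those discs 1320 were counted neither as higher nor as lower, and of these 1167 (88.4%) had a difference above 0, with a median of 0.77. At 8-fold 167 of 182 such genes did, with a median of 1.15. Among the 11969 genes within 2-fold of the membranes by the mean of all 9 discs 31.6% had a difference above 0 and the median was -0.16. The amount of disc tissue in a piece and its stage cannot be told apart here.

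**Figure D2:**
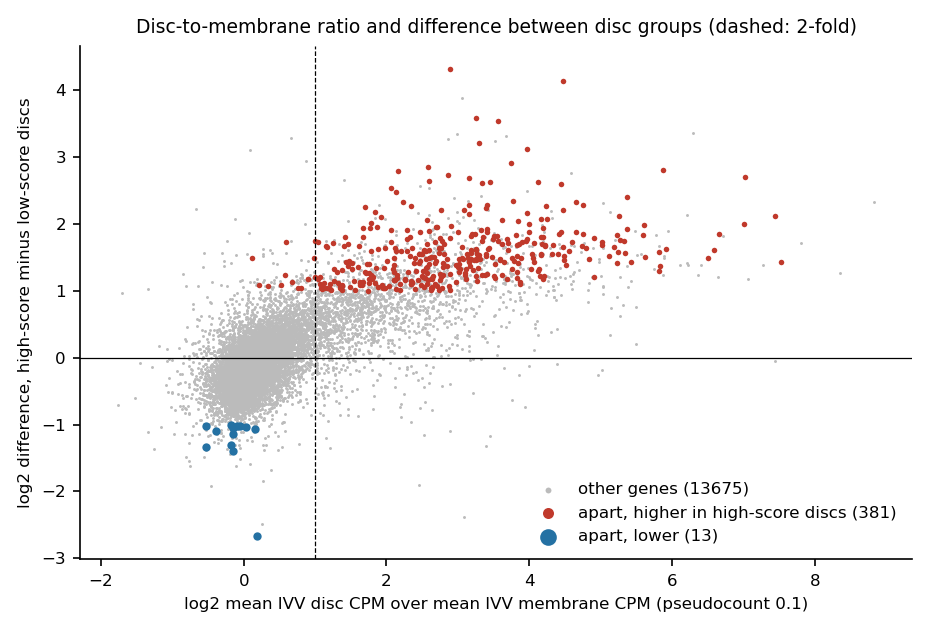
Each point is 1 of the 14069 genes compared, with the log2 ratio of its mean CPM in IVV discs over IVV membranes on the horizontal axis and the log2 difference between high-score and low-score discs on the vertical axis. Of the 381 red genes 368 lie right of the dashed line at 2-fold, and the 13 blue genes lie left of it.

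The groups are named by their score and not as late and early streak, since epiblast genes were also at higher levels in most high-score discs and HOX genes were not. POU5F1, the pluripotency factor of the epiblast, had 254, 146, 152 and 77.0 CPM in VE5, VE28, VE29 and VE26, 69.8 CPM in VE6, and 105, 75.0, 39.4 and 30.1 CPM in VE3, VE19, VE24 and VE4. It was thus highest in the disc with the highest score and lowest in the disc with the lowest. As a description of the values that chose the discs, TBXT set against the POU5F1 counts of the same disc came to 6.22 to 14.4% in the high-score and 0.651 to 11.6% in the low-score discs. MIXL1 came to 7.31 to 11.0% and 7.04 to 13.8%, and EOMES to 20.1 to 25.2% and 10.9 to 27.3%. The summed level of the 24 epiblast genes was 1049 to 2147 CPM in the high-score and 804 to 1037 CPM in the low-score discs, so that VE28 and VE24 almost met.

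Lists of genes for tissues and signals are described by how many of their members were higher and by their median difference. Over all genes these were 2.71% and -0.10, and 40.7% had a difference above 0. By the mean of all 9 discs 2080 genes were at least 2-fold above the membranes. Of these 17.7% were higher and 93.5% had a difference above 0, with a median of 0.90, which is the nearer background for lists of disc genes. List medians were below 0.90 except for streak genes and the mesenchymal transition. Only neural plate and anterior genes had a larger share counted as higher than 17.7%. Of the list genes counted as higher, CDX1, RSPO4, NOTUM, IRX2, NCAM1 and TKDP2 had means below 0.5 CPM in the low-score discs, from 0.305 to 0.451 CPM, and passed the filter only through other discs. FZD7 and the genes named below that were not counted as higher or lower were chosen after their values were seen. Of 15 genes of the primitive streak and early mesoderm, score genes left out, 2 were higher and the median difference was 1.15. APLNR, the apelin receptor of early mesoderm, had 34.9, 18.5, 25.1 and 14.0 CPM in the high-score discs and 6.29, 0.228, 6.76 and 11.3 CPM in VE3, VE19, VE24 and VE4. Its difference was 1.47 without VE19, over 1.5 times smaller than with it. CDX1, a caudal factor of posterior tissue, was at 0.727 to 1.49 CPM against 0.114 to 0.649 CPM. WNT3A, a Wnt ligand of the streak, had 6.30, 2.58, 3.18 and 0.975 CPM in the high-score discs, but VE3 with 1.15 CPM lay above VE26. CDX2, which is also a trophoblast gene, went the other way with a difference of -0.61.

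Among Wnt ligands and their R-spondin amplifiers 2 of 14 were higher, with a median of 0.48. RSPO4 was at 4.50, 1.40, 2.03 and 1.04 CPM in the high-score and at 0.556, 0.160, 0.464 and 0.0392 CPM in the low-score discs, the last of which is 2 counts. WNT5A, which guides cell movement, was at 5.75 to 12.8 CPM against 1.12 to 5.61 CPM, so that VE26 and VE4 almost met. Of 36 Wnt receptors, readouts and antagonists 5 were higher, with a median of 0.46. The readout LEF1 had a difference of 1.86 and the receptor FZD7 one of 1.01. The other 3 were secreted antagonists, SFRP1 with a difference of 1.83, DKK3 with 1.88, or 1.16 without VE4, and NOTUM with 1.42. SFRP1 was at 89.8, 34.1, 42.8 and 22.8 CPM in the high-score discs and at 12.1, 12.1, 13.5 and 9.33 CPM in the low-score discs, with VE6 at 26.7 CPM.

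Of 19 Nodal and activin genes 0 were counted as higher although the median difference was 0.74. For NODAL, GDF3 and LEFTY2 the low-score disc VE19 lay among or above the high-score discs. NODAL, the ligand, had 12.7, 9.14, 9.45 and 5.77 CPM in the high-score discs, and 5.53, 9.87, 2.75 and 0.373 CPM in VE3, VE19, VE24 and VE4. GDF3, its partner ligand, reached its highest level of all 9 discs in VE19, with 28.4 CPM against 6.94 to 21.5 CPM in the high-score discs, and was at 0.216 CPM in VE4. LEFTY2, a feedback inhibitor, was at 9.82 CPM in VE19 and at or below 3.43 CPM elsewhere. FOXH1, the cofactor through which Nodal acts, was at 20.6 to 60.8 CPM in the high-score and at 12.6 to 22.4 CPM in the low-score discs, the highest of them VE19.

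Cells that leave the streak take up mesenchymal matrix, and of 22 genes of this transition 19 had a difference above 0 and 3 were higher, with a median of 1.03. HAS2, which makes hyaluronan, had 78.2, 35.2, 31.4 and 20.3 CPM in the high-score and 12.2, 13.8, 12.7 and 2.27 CPM in the low-score discs. MMP2, a matrix protease, was at 97.6, 39.4, 41.6 and 24.3 CPM against 14.7, 23.5, 16.6 and 7.63 CPM, so VE26 and VE19 were neighbours. TNC, a matrix glycoprotein, was at 2.81 to 3.93 CPM against 0.980 to 2.56 CPM. Of 19 presomitic and segmentation genes 3 were higher, which were CDX1, the receptor NOTCH1 and MESP2, a factor of the forming somite border. MESP2 ran from 4.50 to 9.13 CPM in the high-score and from 1.60 to 4.06 CPM in the low-score discs, and NOTCH1 from 2.89 to 8.53 CPM and from 1.10 to 2.21 CPM. Of the 19 genes 14 had a difference above 0, and the median was 0.58.

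Of 25 genes of lateral and extra-embryonic mesoderm, blood and endothelium 19 had a difference above 0 and 1 was higher, with a median of 0.25. It was FOXF1, a factor of lateral mesoderm, with 6.23, 4.75, 5.70 and 4.59 CPM in the high-score discs and 1.34, 0.205, 1.26 and 4.04 CPM in the low-score discs. The highest FOXF1 level was that of the middle disc, at 10.3 CPM, and the difference of 2.21 was 1.46 without VE19. KDR, the receptor of blood and endothelial precursors, had 8.38, 18.7, 19.0 and 14.6 CPM in the high-score discs, 37.1 CPM in VE6, and 7.86, 0.798, 6.40 and 22.0 CPM in VE3, VE19, VE24 and VE4. Unlike most of the list, KDR was higher in the disc with the lowest score than in any high-score disc. HAND1, of extra-embryonic mesoderm and trophoblast, was also higher in VE4, at 104 CPM, and in VE6, at 101 CPM, than in the high-score discs, at 42.2 to 60.9 CPM.

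Within the low-score group VE19 and VE4 were unlike each other. VE19 held Nodal ligands at the level of the high-score discs but little RNA of several genes of mesenchyme and endothelium, with 0.798 CPM of KDR, 1.57 CPM of VIM, a mesenchymal filament, and 1 count of SNAI2, a factor of the mesenchymal transition. HAS2 and MMP2 did not share this, being higher in VE19 than in the other 3 low-score discs. VE4 held 22.0 CPM of KDR, 12.8 CPM of VIM and 36.3 CPM of COL1A1, a fibrillar collagen, but only 0.373 CPM of NODAL, 0.187 CPM of TBXT by library total and 3 counts of CER1, a Nodal antagonist. VE19 was the lowest of the 9 discs for 2253 of all 14069 genes compared. It was the lowest for 13 of 25 genes of lateral mesoderm and blood and for 11 of 22 genes of the mesenchymal transition. It was likewise the lowest for 12 of 25 BMP genes, 12 of 32 hypoblast genes and 8 of 20 glycolysis and hypoxia genes. It was also the disc with the most mitochondrial RNA and with the most immediate early RNA, at 8766 CPM, and their part in this was not tested. VE4, the lowest by the score that ranked the discs, was the lowest for 9 of 15 streak genes, 8 of 19 Nodal genes and 8 of 18 epiblast genes, and for 8.13% of all genes. The middle disc VE6 was the highest for 10 of 25 genes of lateral mesoderm and blood, 10 of 22 of the mesenchymal transition and 12 of 25 BMP genes, while it was the highest for 8.99% of all genes compared. These discs were singled out after their values were seen.

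**Figure D3:**
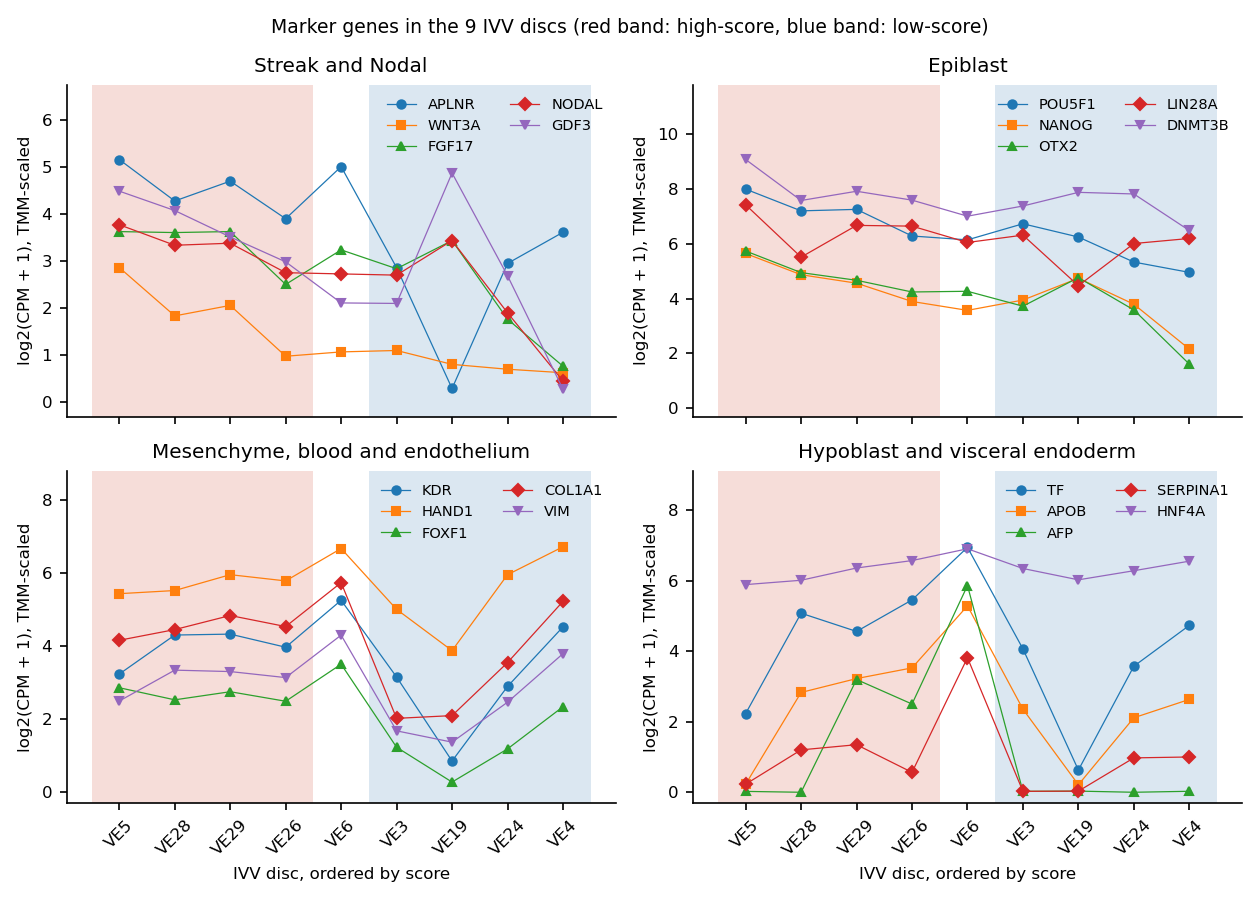
Each line is 1 gene over the 9 IVV discs ordered by score, as log2(CPM + 1) with TMM-scaled CPM, and lines join discs only to guide the eye. NODAL and GDF3 are higher in VE19 than in VE3 and VE24 and lowest in VE4, whereas KDR, FOXF1, COL1A1, VIM and the 5 hypoblast genes are highest in the middle disc VE6, and KDR is lowest in VE19.

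Of the 18 epiblast and pluripotency genes compared 0 were counted as higher, and 15 had a difference above 0, with a median of 0.55. NANOG had 49.1, 28.3, 22.7 and 13.9 CPM in the high-score discs and 14.4, 25.8, 12.9 and 3.47 CPM in VE3, VE19, VE24 and VE4. OTX2, of the anterior epiblast, ran from 17.9 to 52.4 CPM in the high-score and from 2.06 to 26.3 CPM in the low-score discs. Of 16 neural plate and anterior genes 3 were higher, which were SOX11, IRX2 and NCAM1. SOX11, a factor of early neural cells, was at 82.7, 32.1, 37.1 and 18.1 CPM in the high-score and at 16.2, 13.4, 12.3 and 5.43 CPM in the low-score discs. HOX and CDX genes, which give posterior identity, did not follow, since 5 of 20 had a difference above 0 and the median was -0.56. HOXB9 was at 5.51 to 9.47 CPM in the high-score and at 7.98 to 18.2 CPM in the low-score discs, and its mean in discs was close to that in membranes, with a log2 ratio of -0.18.

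BMP, FGF and retinoic acid genes mostly had differences above 0. Of 25 BMP genes 3 were higher, with a median of 0.42. The transcriptional effector SMAD9 had a difference of 1.50, the secreted modulator BMPER one of 1.44, or 0.78 without VE19, and the target ID4 one of 1.11. The ligand BMP4 was at 17.7 to 48.1 CPM in the high-score and at 23.0 to 29.4 CPM in the low-score discs. Of 20 FGF genes 1 was higher, with a median of 0.51. The ligand FGF19 had 10.4, 6.05, 4.57 and 4.11 CPM in the high-score and 1.06, 2.07, 1.89 and 2.00 CPM in the low-score discs. VE6 had 6.19 CPM of FGF19, and the difference of 1.76 was 1.14 with VE6 in place of VE3, where the groups overlapped. Of 17 retinoic acid genes 1 was higher, with a median of 0.32. STRA6, the retinol transporter, had 15.9, 5.59, 6.34 and 4.03 CPM in the high-score and 3.25, 0.501, 2.56 and 0.608 CPM in the low-score discs. Of 8 germ cell genes 1 was higher, DND1, an RNA-binding protein of germ cells, with 6.46 to 19.0 CPM against 2.69 to 6.43 CPM.

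Genes of the tissues around the disc had medians near or below 0. The summed level of 28 trophoblast genes was 42307 to 55507 CPM in the high-score and 50657 to 64878 CPM in the low-score discs, and 5 of the 25 compared had a difference above 0, with a median of -0.25. TKDP2, a trophoblast Kunitz protein from a family of close copies whose reads may be split uncertainly, was the 1 gene of the trophoblast list counted as higher, but its level in these discs was above that in the membranes by 3.34 on the log2 scale. The summed level of 34 hypoblast genes was 3123 to 5014 CPM and 3359 to 6032 CPM, with 0 of 32 higher, differences from -0.81 to 3.36, the latter for AFP, and a median of -0.01. Within this list the middle disc stood out, since the serum protein gene TF was at 122 CPM in VE6 and at 0.547 to 42.8 CPM in the others, and AFP at 57.0 CPM in VE6 and at 0 or 1 count in 6 of the others. The 19 genes of maternal blood and endometrium summed to 14.1 to 28.1 CPM and 17.0 to 33.3 CPM, and 6 of them were at or below 3 counts in all 9 discs. Medians were -0.34 for 12 surface ectoderm and amnion genes, -0.11 for 24 cell cycle genes, -0.02 for 20 glycolysis and hypoxia genes, -0.10 for 13 mitochondrial transcripts, 0.02 for 27 immediate early genes and 0.52 for 14 node and endoderm genes, with 0 genes counted as higher in each.

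Several of the largest differences at a mean of at least 1 CPM were in genes outside the lists. ANO5, a calcium-dependent membrane protein, had 13.8, 2.11, 7.59 and 1.36 CPM in the high-score discs, 1.11 CPM in VE24 and 0.824 CPM in VE4, and 1 count each in VE6, VE3 and VE19. RBM20, a splicing regulator, was at 22.3, 7.76, 7.53 and 5.57 CPM in the high-score and at 1.98, 1.25, 2.15 and 0.510 CPM in the low-score discs, a difference of 2.80. CYP1B1, an oxidase of steroids and retinoids, was at 54.7, 20.6, 19.8 and 15.4 CPM against 3.84, 2.71, 9.19 and 2.02 CPM, a difference of 2.69. RFTN2, SEMA6A, PCDH18, MAOA and SLCO3A1 were also among them, with differences between 2.34 and 2.65. That of SEMA6A was 1.71 without VE4, and that of MAOA was 1.09 with only the discs whose titles end in C. ANO5, MAOA and SLCO3A1 had means of 0.441 to 0.495 CPM in the low-score discs and PCDH18 one of 0.907 CPM, so they reached a mean of 1 CPM only through other discs. The genes whose log2 CPM over the 9 discs were most like the score were CT55, CNTN2, LHFPL7, FYN and SOX11, with Pearson r between 0.986 and 0.988, given as a description over libraries that share their scaling. LHFPL7 had a mean of 0.200 CPM in the low-score discs and passed the filter only through other discs.

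The genes that were lower were few, and most differed by little more than the limit of 1. CARD6, of an innate immune family, had 0.0172, 0.414, 0.790 and 0.942 CPM in the high-score and 2.19, 2.16, 2.82 and 2.22 CPM in the low-score discs, the largest such difference at -2.66, or -1.73 without VE5. Among genes with a symbol and a mean of at least 1 CPM, PDE1A, a cyclic nucleotide phosphodiesterase, was next with -1.40, which was -0.24 with VE6 in place of VE3, and SMCO4 had -1.15. TRPM1, NIPSNAP3A, C17H4orf33, FUT2 and HEXA had differences between -1.10 and -1.01. Of the 13 genes 0 were at least 2-fold above the membranes in the discs. HEXA, a lysosomal enzyme, had 57.7, 50.4, 52.1 and 35.2 CPM in the high-score and 72.3, 119, 153 and 67.0 CPM in the low-score discs. The middle disc lay nearer the mean of the high-score discs for 10 of the 13 lower genes and for 213 of the 381 higher genes.

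The membranes of the same embryos were not used for the grouping, and the 4 EEM libraries of the high-score embryos were tested against the 4 of the low-score embryos. VE6 has no EEM library in the series. The titles of the VE3 and VE19 membranes, both low-score, end in another letter than the rest, and no fit with 1 letter alone was made. In edgeR's quasi-likelihood test 0 of 12622 genes passed an adjusted p of 0.05 (0%), with 72 genes at an unadjusted p under 0.05 and a smallest adjusted p of 0.75. DESeq2 and limma voom called 0 genes as well, with 79 and 134 at an unadjusted p under 0.05. The median standard error of a log2 difference was 0.38. TBXT held 0 counts in every membrane library and EOMES at most 4 in an IVV membrane. MIXL1 held 28 to 125 counts in the 8 IVV membranes. By library total that was 0.49 to 2.2 CPM, which overlapped the 1.19 to 3.62 CPM of the 7 IVP discs. The lowest p was that of HSPA6, a heat shock protein, with a log2 difference of 3.04 ± 0.63 (SE, n = 4 and 4) and an edgeR adjusted p of 0.75. It was called with library totals, with XIST as a covariate, with the score as a number and without VE19, and not in the other settings. HSPA6 was at 137, 56.6, 7.08 and 33.3 CPM in the membranes of VE5, VE28, VE29 and VE26 and at 4.17, 5.38, 16.6 and 2.36 CPM in those of VE3, VE19, VE24 and VE4. CXCL5, PTGES and FOXJ1 were next among positive differences, between 1.03 and 1.66, and DIRAS2, KRT80, TMEM132D and SYNDIG1 were among the lowest p with negative ones, between -1.74 and -0.97. The difference of SYNDIG1, -1.74, was -0.36 without the membrane of VE19 and -0.86 in limma voom. That of FOXJ1, 1.45, was 2.22 without the membrane of VE19. The edgeR adjusted p of these 7 genes was 1.00. Without the membrane of VE19 17 genes were called higher, HSPA6, CXCL5 and FOXJ1 among them, and 2 lower. Of the 381 genes higher in the discs 107 passed the filter in the membranes. Of these 66 (61.7%) had a difference above 0, against 52.8% of all genes, with a median of 0.09 against 0.02. Without 1 membrane at a time the share was 52.2 to 68.6% and the median 0.03 to 0.21. With library totals the share was 43.9% against 38.6% of all genes, and the median was -0.03 against -0.09.

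**Figure D4:**
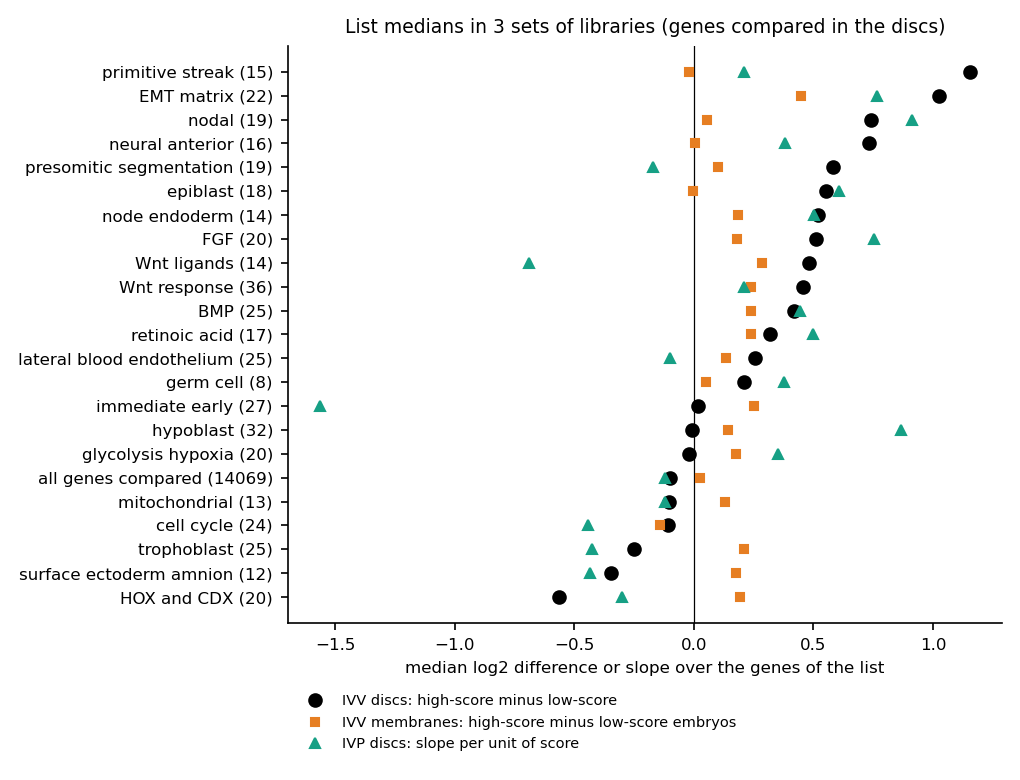
Each row is 1 list with the number of genes compared in the discs, and the points give its median log2 difference between IVV disc groups, its median difference between the membranes of the same embryos and its median slope on the score in IVP discs. The disc medians run from -0.56 for HOX and CDX genes to 1.15 for streak genes, while the membrane medians plotted lie between -0.14 and 0.45.

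In the 7 IVP discs the score ran from 1.20 in IVP10 to 1.90 in IVPF14 and 2.43 in IVP14, overlapping the IVV discs through VE4, and TBXT held 0 counts in 2 of them. The slope of each gene on the score was tested over these libraries. The titles of IVPF13 and IVPF14 end in another letter than those of the other IVP discs, and no fit with 1 letter alone was made. In edgeR's quasi-likelihood test 0 of 13224 genes passed an adjusted p of 0.05 (0%), with 966 genes at an unadjusted p under 0.05 and a smallest adjusted p of 0.645. DESeq2 called 1 gene, FOSB, and limma voom 0, with 1566 and 1068 at an unadjusted p under 0.05. The median standard error of a slope was 0.58 per unit of score. Of the 381 genes higher in high-score IVV discs 246 passed the filter here, and 230 of them (93.5%) had a slope above 0, against 44.3% of all genes. Their median slope was 0.81 against -0.12. With no filter 325 of the 381 (85.3%) had a slope above 0, against 43.0% of all genes. Without IVP14, the disc with the highest score, the share was 70.9% of 247 genes against 48.0% of all. Without IVPF14, the next by score, it was 93.2% of 251 genes. Of 10 lower genes tested 4 had a slope above 0, with a median of -0.11. Of the 381 genes 368 were at least 2-fold above the membranes in IVV discs. Slopes of disc genes outside the 381 are not given as a background. The amount of disc tissue in a piece and its stage cannot be told apart in the IVP discs either.

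**Figure D5:**
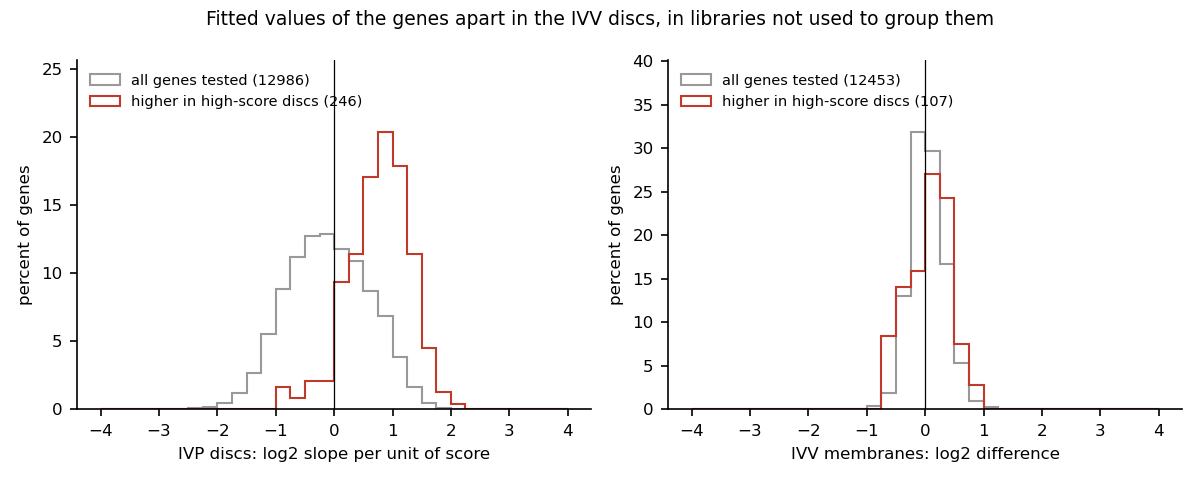
Histograms, in percent of genes per bin, of the slope on the score in the 7 IVP discs (left) and of the log2 difference between the 4 and 4 membranes (right). The genes higher in high-score IVV discs have a median slope of 0.81 against -0.12 for all genes on the left, and a median difference of 0.09 against 0.02 on the right.

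HAS2, higher in the high-score IVV discs, was also among the 5 genes with the lowest p and a positive slope in IVP discs. Its slope was 2.05 ± 0.60 (SE, n = 7, edgeR adjusted p = 0.645), and it had 13.2 CPM in IVP14, 11.2 CPM in IVPF14 and 1.47 to 6.36 CPM in the other 5. IGFBP4, a binding protein of insulin-like growth factors, was likewise higher in the IVV discs, by 1.56, and had a slope of 1.87 ± 0.55. The other 3 were PRLR, the prolactin receptor, CYP1A1, a detoxifying oxidase, and MAMDC2, with slopes of 2.34, 2.00 and 1.75. Without IVP14 the slopes of HAS2, IGFBP4 and CYP1A1 were 3.34, 2.87 and 3.15. FOSB, KCNH2, GKAP1 and P2RX5 were among the negative slopes with the lowest p, from -2.98 to -1.95. The slope of KCNH2, -2.63, was -3.97 without IVP14. FOSB, an immediate early factor, was at 12.8 CPM in IVP14, 19.0 CPM in IVPF14 and 48.4 to 156 CPM in the other 5 discs. None of these 9 genes passed the adjusted threshold in edgeR, where their adjusted p was 0.645.

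The medians of several lists were unlike in IVV and IVP discs. That of the streak genes was 1.15 between the IVV groups, and in IVP discs 5 of 9 slopes were above 0, with a median of 0.21. Over all genes compared, 44.3% had a slope above 0 in IVP discs, the median slope was -0.12, and 443 of 12986 had a negative slope at an unadjusted p under 0.05. Of 25 immediate early genes 0 had a slope above 0 in IVP discs, with a median of -1.56 and 15 negative slopes at an unadjusted p under 0.05, whereas the same list had a median difference of 0.02 between the IVV groups. The part of these genes in the other IVP slopes was not tested. Of 29 hypoblast genes 27 had a slope above 0, with a median of 0.87 against -0.01 between the IVV groups. Nodal genes were alike in sign, with 12 of 15 slopes above 0 and a median of 0.91, and NODAL itself had a slope of 2.02 ± 0.72. Trophoblast genes had 5 of 24 slopes above 0, with a median of -0.43. Presomitic genes had 5 of 12 slopes above 0 and Wnt ligands 4 of 10, shares near that of all genes, with medians of -0.17 and -0.69. The difference between IVV and IVP discs was not tested for any list.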

How the data were processed

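The deposited values are raw counts per gene and library, which the authors made by filtering poly(A) paired reads with SOAPnuke, aligning them with STAR (2.7.0b per the submitters' processing notes) to ARS-UCD1.3 and counting with featureCounts (Subread 2.0.3). The protocol does not mark strand, so overlapping genes cannot be told apart. Symbols were taken from RefSeq (ARS-UCD2.0) for 31630 of 35092 gene IDs.

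The 9 IVV discs were scored with a pseudocount of 1 CPM. Members and gene lists (25 lists, 532 of 541 genes matched) were chosen with earlier results of these data known. CPM were TMM-scaled over the 9 discs, and log2 values were taken after adding 2 prior counts. Genes with a mean of at least 0.5 CPM were compared, without the 3 score genes. The disc-to-membrane ratio used a pseudocount of 0.1 CPM. Membranes (4 against 4) and IVP discs (slope on the score) were tested with edgeR 4.0.16 in R 4.3.3: TMM, filterByExpr with at least 10 counts, quasi-likelihood test, Benjamini-Hochberg adjustment over all genes tested. DESeq2 1.42.0 and limma 3.58.1 (voom) were alternatives, and the scripts were tested on simulated data. Each embryo gave 1 library per tissue, and p-values measure the spread between these embryos, which come from few cows. Totals of 48713218 to 63037371 counts per library set the depth, and a gene at or below 3 counts was taken as at the floor, which covers counting error only.

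Named genes were the score genes, up to 4 genes per list counted as higher or lower, the 12 largest differences in each direction among symbols without a LOC number at a mean of at least 1 CPM, the 5 genes most like the score and the 5 lowest p per direction in each fit, of which 3 genes are not reported here. No sequence is printed, and the genes' promoters were not analysed here. The alternatives were other scores, groupings, scalings, filters and fold limits, a term for XIST, and fits that dropped 1 library at a time.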

Additional observations from a re-analysis of the deposited data

Results flagged for a closer look

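Of 96 groups of libraries checked for a library far from the others with Dixon's criterion at 95%, 8 met it. All 8 are disc groups formed by the score, checked for genes named by their values in those discs. They are a description, and no chance rate applies to them. In the high-score discs VE5 lay far above the other 3 for 6 genes. It had 22.3 CPM of RBM20 against 5.57 to 7.76 CPM, 54.7 CPM of CYP1B1 against 15.4 to 20.6 CPM and 39.6 CPM of RFTN2 against 5.36 to 6.18 CPM. It also had 4.95 CPM of SLCO3A1 against 1.19 to 1.51 CPM, 19.8 CPM of DKK3 against 4.99 to 6.26 CPM and 2.54 CPM of IRX2 against 0.711 to 0.945 CPM. VE5 was also the disc with the highest score and the highest summed level of epiblast genes. In the low-score discs VE4 lay far below the others for HAS2, with 2.27 CPM against 12.2 to 13.8 CPM, and VE24 lay above them for CARD6, with 2.82 CPM against 2.16 to 2.22 CPM.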

How the results depend on the processing

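The tests were not paired, because the score groups and the IVP discs hold different embryos. The disc-to-membrane ratio was also taken within embryos, a choice made after seeing the data, and moved the genes counted as higher with a 2-fold ratio from 368 to 364. In the discs, 381 genes higher and 13 lower became 239 and 11 when the score was scaled by TMM or made without MIXL1 or without EOMES, and when VE6 took the place of VE3, an alternative chosen after seeing the data; all of these set the same groups. The score without TBXT put VE6 in the high-score group in place of VE26 and gave 24 lower genes and 3.50% of genes higher, with 262 of the 381 and 7 of the 13 shared. The 3 highest against the 3 lowest discs gave 1017 and 145, titles ending in C 949 and 187, library totals 651 and 4, which moved the median of all genes from -0.10 to 0.09, and a difference of at least 2 gave 47 and 1. Means of at least 2 CPM gave 216 and 7, means of at least 0.1 CPM 497 and 21, and no minimum difference 522 and 295. Without 1 disc at a time 300 to 881 genes were higher and 9 to 91 lower. Counts moved by over 1.5 times without VE26 (881 and 62), VE19 (585 and 38), VE4 (91 lower), VE28 (75 lower), VE3 (66 lower) and VE29 (42 lower).

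In the membranes 0 genes became 1 higher with library totals and with XIST as a covariate, HSPA6 in each case. With a mean of at least 0.5 CPM (added after seeing the data) 1 was higher, OR6E1, which was also among 3 higher with no filter. With the score as a number 1 was higher, HSPA6, and 1 lower. Without 1 membrane at a time 0 to 17 were higher and 0 to 2 lower, the latter of each without VE19. In the IVP discs DESeq2 called 1 lower gene and the other settings 0, also without 1 disc at a time. For single genes, the direction held under all settings that gave a value, with 12 values in the discs moved by more than the spread, those of ANO5 (2.08), TKDP2 (1.08) and MAOA (1.09) with titles ending in C only, of FGF19 (1.14) and PDE1A (-0.24) with VE6 for VE3 and of PDE1A (-2.33) without TBXT, and 945 not, and with 6 values in the membranes and 1 in the IVP discs newly past the threshold. The cause of these changes was not tested. A median standard error of 0.38 with 4 against 4 membranes, and of 0.58 per unit of score over the 7 IVP discs, limits what could be detected.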

Other observations

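SLC2A5, a fructose transporter, was the 1 gene called lower in the membranes both without VE19, by -2.03, and with the score as a number, at -1.92 per unit of score. It was not called in the main comparison and was looked at after its values were seen. In the discs its difference was -2.48 with overlapping groups.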
